A study of Mus musculus with 8 samples.

Results

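The 8 genes described here belong to the vascular endothelial growth factor (VEGF) and fibroblast growth factor (FGF) systems, and were followed across 4 groups of mouse hippocampus samples. They are the ligands Vegfa, Vegfb, Vegfc, Fgf1 and Fgf2, and the receptors Fgfr1, Fgfr2 and Fgfr3. They were taken as the probes, controls left out, whose accession maps to one of these 8 symbols, and 14 of the 55681 probes on the array did so, on 33 spots. Of the 8 genes, 7 were bright enough to be tested, among 27192 genes and unnamed transcripts, and Fgf2 was not. The groups crossed mild treadmill running with astaxanthin, a red carotenoid antioxidant made by an alga. All mice were male C57BL/6J, 11 weeks old when obtained, housed singly, and given a powder diet with 0.5% of a second powder mixed in. In the placebo groups this powder was a placebo, and in the astaxanthin groups 2% of it was astaxanthin. The groups were sedentary on placebo (SED), mild exercise on placebo (ME), sedentary on astaxanthin (AX), and mild exercise on astaxanthin (AX+ME), with 8 mice per group. Each group gave 2 RNA samples, of which replicate 1 carried the dye Cy3 and replicate 2 the dye Cy5, and every sample was alone on its array, all on 1 slide. How the 8 mice became 2 samples is not given in the sources used here, so p-values measure only the spread between these samples, which may be technical.

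VEGF ligands bind receptor tyrosine kinases, chiefly on endothelial cells. VEGF-A drives vessel growth and permeability and also acts on neural stem cells of the dentate gyrus. VEGF-B is a survival factor that binds VEGF receptor 1, and VEGF-C is the main ligand of lymphatic growth. FGF ligands bind FGF receptors together with heparan sulfate, and the receptors pass the signal through the adaptor FRS2 to the Ras and ERK cascade. In the adult brain FGF2 supports neural progenitors, FGF receptor 3 is a marker of astrocytes, FGF receptor 2 is found in glia, and FGF receptor 1 is widely found in neurons and progenitors.

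The sequences just before the starts of the 3 VEGF genes are shown for reference. None of the 3 passed in any comparison, and differences between the ligands were not tested. RefSeq (assembly GRCm38.p6) held a start for 6 of the 8 members. The stretch printed is the 250 bases before the start (for Vegfa, the one listed before the other of its 2 starts), 5' to 3' on the strand of the gene, and capitals mark GGGCGG or its reverse complement, the core letters of a GC box.
Vegfa chr17:46032378-46032627 (minus strand): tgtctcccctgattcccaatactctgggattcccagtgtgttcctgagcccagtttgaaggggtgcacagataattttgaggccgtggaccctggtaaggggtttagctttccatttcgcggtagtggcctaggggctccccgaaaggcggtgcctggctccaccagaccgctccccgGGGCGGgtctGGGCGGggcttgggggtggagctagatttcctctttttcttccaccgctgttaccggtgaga
Vegfb chr19:6987652-6987901 (minus strand): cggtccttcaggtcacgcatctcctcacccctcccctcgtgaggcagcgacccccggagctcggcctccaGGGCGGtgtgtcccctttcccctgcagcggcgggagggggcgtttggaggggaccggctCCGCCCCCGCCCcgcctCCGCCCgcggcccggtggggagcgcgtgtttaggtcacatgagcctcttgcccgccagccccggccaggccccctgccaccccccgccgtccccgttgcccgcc
Vegfc chr8:54077282-54077531 (plus strand): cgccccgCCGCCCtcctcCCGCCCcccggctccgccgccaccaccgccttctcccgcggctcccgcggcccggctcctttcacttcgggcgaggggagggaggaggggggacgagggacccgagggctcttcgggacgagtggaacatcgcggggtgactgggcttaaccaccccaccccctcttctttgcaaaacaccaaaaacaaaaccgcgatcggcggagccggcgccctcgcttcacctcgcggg
The GC box letters occurred 2 times before Vegfa, 4 times before Vegfb and 2 times before Vegfc, and 32.7% of 32851 such windows held them at least once. The letters of a hypoxia response core (ACGTG or GCGTG on either strand) occurred 2 times before Vegfb and in neither of the other windows, and 38.6% of all windows held them. None of these matches overlapped a GC box match. The windows held 59.2%, 76.4% and 71.6% G and C in the order printed, against a median of 52.4% over all windows. Neither TATAAA nor TGACG, searched on both strands, was found in the 3 windows, and they were found in 12.4% and 17.8% of all windows. These matches describe the letters of the stretches.

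Levels are given as the signal in the sample's own dye divided by the array's 75th percentile of that signal, so 1 is the level of a fairly bright probe. Levels of different probes cannot be set against each other. Differences are log2 differences between groups from a single limma model over all 8 samples with a term for dye, and their p-values were adjusted by Benjamini-Hochberg over all 27192 genes. Where a gene had several probes, the brightest was tested and is called its main probe. Between 63.2% and 76.2% of the spots were well above background on each array, and the 75th percentile signal lay between 1416 and 2317. All 13 genes of a list of hippocampal neuron markers were well above background on all 8 arrays, and none passed against SED. Of 5 tested pituitary genes 3 fell in ME against SED, and only 2 of the 5 were well above background on all 8 arrays. The summed level of the 5 was 1.46 to 1.51 in SED and 0.733 to 0.751 in ME. It was 1.13 to 1.18 in AX and 1.11 to 1.13 in AX+ME. The part of pituitary tissue in the members' values was not tested. In SED replicate 2, and less so in SED replicate 1, the scanner software's detrending, which multiplies each spot by a factor that depends on its place, was far stronger than on the other arrays. Its factor ran from 0.772 to 2.03 between the 1st and 99th percentiles in SED replicate 2 and from 0.866 to 1.44 in the other SED array, while the remaining 6 arrays stayed within 0.881 to 1.20. Its median in SED replicate 2 was 1.25 below array column 70 and 0.856 from column 70 on, so the column of each member's spot is given. The software's background-subtracted signal before this step is also given, as a reading chosen after the data were seen. Arrays in 1 row of the slide share a dye and arrays in 1 column share a group, so the place of an array and its group cannot be told apart.

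No member passed the adjusted threshold of 0.05 in any of the 8 comparisons. Of all genes tested, 2.86% passed in ME against SED, 3.31% in AX against SED and 6.45% in AX+ME against SED. The share was 0.504% for the interaction, 0.673% for exercise over both diets and 0.787% for astaxanthin over both activity levels. In AX+ME against ME and AX+ME against AX no gene passed in limma (0.0%), although 2242 and 1613 genes had an unadjusted p under 0.05. The 3 comparisons against SED share the SED samples, so each member's values in them are not independent of each other. Over all genes the median log2 difference from SED was -0.06 in ME, -0.04 in AX and -0.03 in AX+ME, and with the signal before detrending it was -0.15, -0.12 and -0.11.

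**Figure D1:**
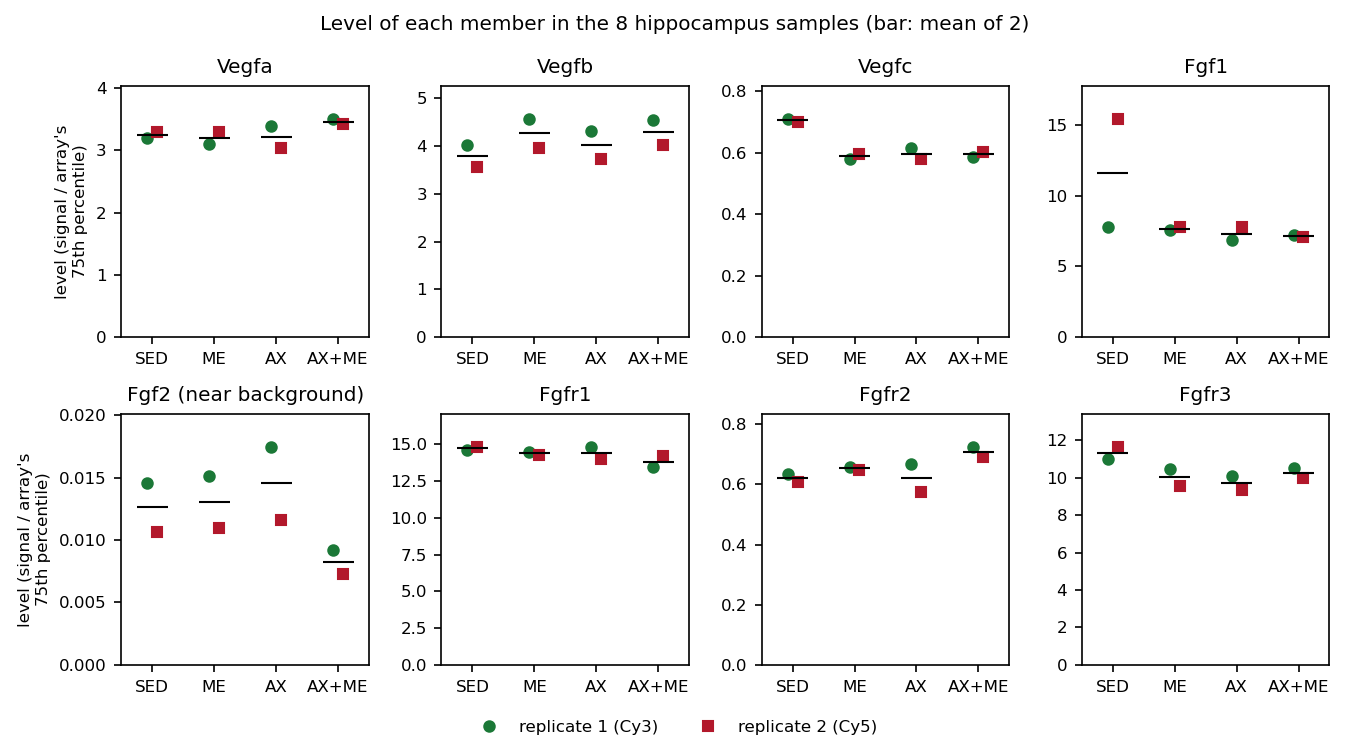
Level of the main probe of each member in the 8 samples, as the own-channel signal over the array's 75th percentile, by group; circles are replicate 1 (Cy3), squares replicate 2 (Cy5) and bars the mean of the 2. Vegfc was 0.710 and 0.700 in SED and 0.578 to 0.614 in the other 6 samples, and Fgf1 stood at 15.4 in SED replicate 2 against 6.83 to 7.81 elsewhere.

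Vegfc, the lymphatic growth factor, had the most even difference among the ligands. Its only probe (A_51_P433870, array column 75) read 0.710 and 0.700 in SED, 0.580 and 0.596 in ME, 0.614 and 0.578 in AX, and 0.587 and 0.603 in AX+ME, replicate 1 first. Both SED samples lay above all 6 others, and the other 3 groups overlapped each other. The group means were 0.705 ± 0.00720 in SED, 0.588 ± 0.0113 in ME, 0.596 ± 0.0256 in AX and 0.595 ± 0.0115 in AX+ME (SD, n = 2). The log2 difference from SED was -0.26 in ME, -0.24 in AX and -0.24 in AX+ME, each with a standard error of 0.059. The adjusted p-values in limma were 0.0952, 0.0985 and 0.0784, so none passed, while the 95% intervals ran from -0.42 to -0.10, from -0.40 to -0.09 and from -0.40 to -0.09. Among the 3 groups other than SED, the interval for AX+ME ran from -0.14 to 0.17 against ME and from -0.16 to 0.15 against AX. The interaction was 0.26 with a standard error of 0.084 (adjusted p 0.289 in limma).

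The lower reading of Vegfc outside SED was at least as large before detrending, where the median of all genes lay lower as well. There it read 0.781 and 0.812 in SED and 0.599 to 0.660 in the other 6 samples, which again did not overlap. The log2 difference in AX+ME was then -0.36 (adjusted p 0.0464 in limma), past the threshold, as were 15.4% of all genes. Under normexp background correction of the median signal it was -0.37 in AX (adjusted p 0.0338 in limma) and -0.36 in AX+ME (adjusted p 0.0298), both past the threshold. So were 15.4% of all genes in AX and 21.4% in AX+ME. With a prior that follows intensity and resists outliers the Vegfc difference was -0.24 in AX+ME, at an adjusted p of 0.0497 in limma. There 12.7% of all genes passed.

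Groups that did not overlap were common on these arrays. Of 27192 genes, 18.5% were higher in both SED samples than in the other 6 samples, and 3 of the 7 tested members (Vegfc, Fgf1 and Fgfr3) were among them. In the opposite direction it was 10.3% of all genes and 0 of the 7 members. Pair by pair, ME lay wholly above SED for 14.9% of all genes and 1 member (Fgfr2) and wholly below it for 30.6% and 4 members (Fgf1, Fgfr1, Fgfr3 and Vegfc). AX lay above SED for 18.2% of all genes and 0 members, and below it for 27.9% and 3 members (Fgf1, Fgfr3 and Vegfc). AX+ME lay above SED for 22.6% of all genes and 3 members (Fgfr2, Vegfa and Vegfb), and below it for 30.6% and 4 members, those of ME. Counts out of 7 are small, and nothing particular to the members is read from them. AX+ME lay above ME for 23.3% of all genes and 2 members (Fgfr2 and Vegfa) and below it for 14.9% and 2 members (Fgf1 and Fgfr1). AX+ME lay above AX for 16.5% of all genes and for the same 2 members, Fgfr2 and Vegfa, and below it for 14.1% and 0 members.

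Beside Vegfc, lists of cell type markers moved in differing directions. Of 16 choroid plexus genes, 7 fell in ME against SED, 0 in AX against SED and 10 in AX+ME against SED. Their summed level was 131 and 108 in SED, 108 and 87.0 in ME, 112 and 96.1 in AX and 95.4 and 91.1 in AX+ME, and all 16 were well above background on all arrays. Such sums weigh bright probes most. By gene, 11 of the 16 read lower in AX than in SED and 5 higher. Of 10 meningeal fibroblast genes, 2, 1 and 0 fell in the same order of comparisons, and their summed level ran from 27.5 to 29.2 in SED and from 24.9 to 26.6 elsewhere. Of 14 endothelial genes, 1 fell in each of the 3 comparisons, with medians of -0.17, -0.09 and -0.05. Their summed level was 44.9 and 41.8 in SED and 37.4 to 40.3 elsewhere. Single genes of that list ran from -0.43 to 0.65, from -0.50 to 0.68 and from -0.52 to 0.65. Of 8 pericyte and smooth muscle genes, 1 rose in each comparison and none fell, with medians of -0.02, 0.17 and 0.14. In that list 4, 7 and 7 genes read higher than in SED. The part of these cells in the values of Vegfc was not tested. In bulk tissue, fewer cells of a type and less RNA per cell cannot be told apart.

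Vegfb, the ligand of VEGF receptor 1, read higher outside SED, but the direction depended on the detrending. Its only probe (A_52_P436628, array column 95) read 4.02 and 3.56 in SED, 4.57 and 3.96 in ME, 4.32 and 3.73 in AX and 4.55 and 4.03 in AX+ME. Within each dye SED was the lowest sample, and across dyes the groups overlapped except in AX+ME against SED. The group means were 3.79 ± 0.321 in SED, 4.26 ± 0.434 in ME, 4.03 ± 0.414 in AX and 4.29 ± 0.371 in AX+ME (SD, n = 2), a spread that holds the dye difference. The log2 difference from SED was 0.17 in ME, 0.09 in AX and 0.18 in AX+ME, with a standard error of 0.049 and adjusted p-values of 0.138, 0.329 and 0.0943 in limma. Over both diets the difference with exercise was 0.13 with a standard error of 0.035 (adjusted p 0.179 in limma). At this spot the detrending factor was 0.907 and 0.795 in SED, and 0.947 to 0.985 in the other 6 samples. Before detrending the log2 differences were -0.05, -0.11 and -0.02, so the fitted direction flipped. The medians over all genes in that reading were -0.15, -0.12 and -0.11. Within Cy5 the Vegfb differences were then -0.16, -0.23 and -0.12, while within Cy3 they stayed at 0.06, 0.00095 and 0.08. With the intensity-following prior the difference in AX+ME passed (0.18, adjusted p 0.0457 in limma), as did 12.7% of all genes.

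Vegfa, the main angiogenic ligand, was close to level over the groups. The 2 spots of its main probe (A_52_P638895, array columns 116 and 158) averaged 3.20 and 3.29 in SED, 3.10 and 3.30 in ME, 3.39 and 3.04 in AX and 3.51 and 3.42 in AX+ME. Both AX+ME samples lay above the other 6, which held for 5.79% of all genes and for 2 of the 7 members, Vegfa and Fgfr2, a pattern picked out after its values were seen. Both lay below the other 6 for 3.45% of all genes and 0 members. The group means ran AX+ME 3.46 ± 0.0630, SED 3.25 ± 0.0631, AX 3.22 ± 0.246 and ME 3.20 ± 0.138 (SD, n = 2), and SED, AX and ME did not differ beyond their spread. The log2 difference from SED was -0.02 in ME, -0.01 in AX and 0.09 in AX+ME, with a standard error of 0.078, and the interval for AX+ME ran from -0.11 to 0.30. AX+ME differed from ME by 0.12 (interval -0.09 to 0.32) and from AX by 0.11 (interval -0.10 to 0.31), and neither passed. Before detrending the separation of AX+ME from SED was gone, with 3.40 and 3.21 in AX+ME and 3.19 and 3.67 in SED, and the log2 difference was -0.05, in the other direction. A dimmer second probe (array column 44) read 0.183 to 0.212 in the 4 Cy3 samples. In the Cy5 samples it read 0.286 in SED, 0.342 in ME, 0.277 in AX and 0.615 in AX+ME. The high value was that of 1 sample, AX+ME replicate 2, and AX+ME replicate 1 read 0.195. Tested as a row of its own, its log2 difference from SED in AX+ME was 0.49 with a standard error of 0.341 (adjusted p 0.390 in limma). The 2 Vegfa probes thus did not vary alike.

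**Figure D2:**
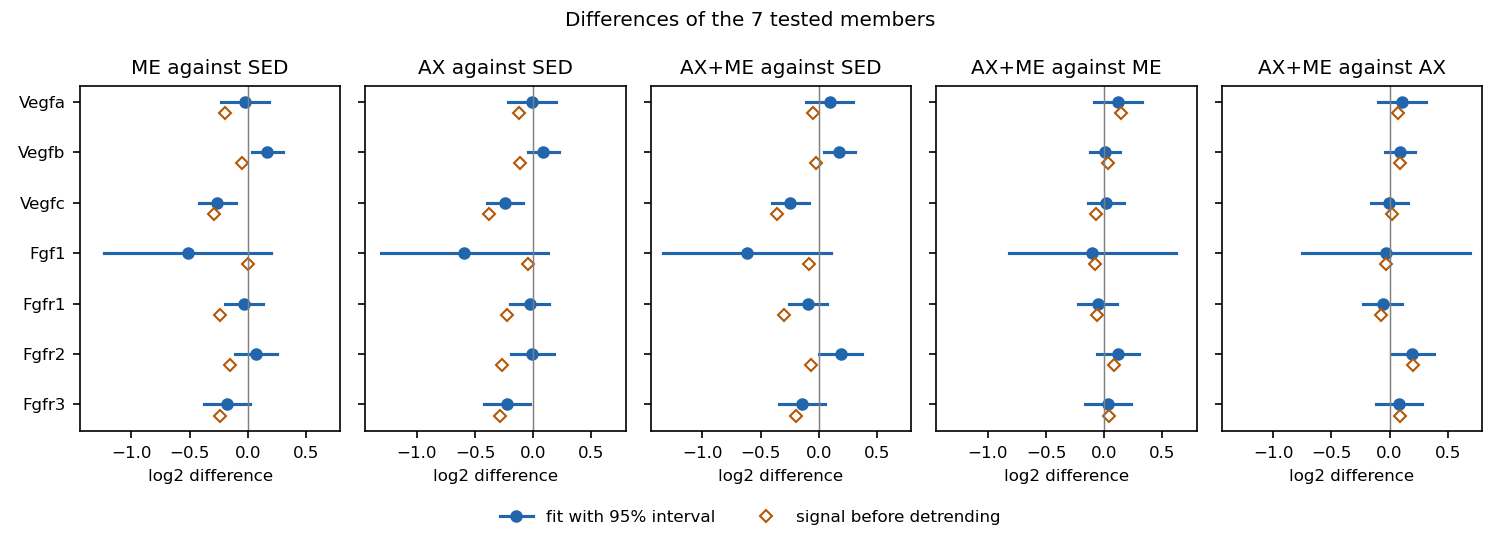
Log2 differences of the 7 tested members in 5 comparisons: filled circles with bars are the limma estimates with 95% intervals, and open diamonds the estimates from the signal before detrending. Vegfc lies left of 0 against SED by both readings, at -0.24 to -0.26 in the fit, while Fgf1 lies at -0.52 to -0.62 in the fit and between 0.00041 and -0.08 before detrending.

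Fgf1, acidic FGF, which binds all FGF receptors, stood apart in a single sample. Its main probe (A_55_P2047188, array column 14) read 7.81 and 15.4 in SED, 7.55 and 7.79 in ME, 6.83 and 7.77 in AX and 7.21 and 7.09 in AX+ME. SED replicate 2 was thus far above all the others, and SED replicate 1 lay just above the highest of the other 6. The log2 difference from SED was -0.52 in ME, -0.59 in AX and -0.62 in AX+ME, each with a standard error of 0.272 and adjusted p-values of 0.317, 0.253 and 0.202 in limma. The detrending factor at this spot was 1.31 and 1.75 in SED, against 1.02 to 1.05 in the other 6. Before detrending Fgf1 read 6.03 and 9.12 in SED and 6.74 to 7.65 in the other 6, and the log2 differences were 0.00041, -0.05 and -0.08. Without SED replicate 1, which leaves SED replicate 2 as the only SED sample, the differences were -0.97, -1.05 and -1.08. Without SED replicate 2 they were -0.06, -0.13 and -0.16. Each of these fits assumes that the single SED sample varies like the other groups. A second Fgf1 probe (array column 57) was near background, at 0.0289 to 0.0476.

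Fgf2, basic FGF, a mitogen of neural progenitors, was too dim to test. The 10 spots of its only probe (A_51_P399845, array columns 4 to 151) averaged 0.0146 and 0.0107 in SED, 0.0152 and 0.0109 in ME, 0.0175 and 0.0116 in AX and 0.00919 and 0.00724 in AX+ME. In the Cy3 samples 7, 9, 10 and 1 of the 10 spots were well above background in SED, ME, AX and AX+ME. In the Cy5 samples the numbers were 1, 0, 1 and 1. The lowest signal well above background was 0.00880 to 0.0127 of the 75th percentile on the Cy3 arrays and 0.0167 to 0.0251 on the Cy5 arrays, so the Cy5 level of every group lay under the lowest of those limits. No fold change is therefore given for Fgf2.

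Fgfr3, the receptor marking astrocytes, was, like Vegfc, highest in SED, by a smaller difference. Its main probe (A_55_P1996578, array column 75) read 11.0 and 11.7 in SED, 10.5 and 9.55 in ME, 10.1 and 9.34 in AX and 10.5 and 10 in AX+ME. Both SED samples lay above the other 6, whose groups overlapped. The group means were 11.3 ± 0.469 in SED, 10.02 ± 0.657 in ME, 9.71 ± 0.532 in AX and 10.3 ± 0.370 in AX+ME (SD, n = 2). The log2 difference from SED was -0.18 in ME, -0.22 in AX and -0.14 in AX+ME, with a standard error of 0.074 and adjusted p-values of 0.235, 0.158 and 0.262 in limma. With detrending, these sizes rested largely on SED replicate 2. Without it the differences were -0.08, -0.13 and -0.05. Without SED replicate 1 they were -0.27, -0.32 and -0.24, but SED replicate 2 was then the only SED sample and was assumed to vary like the other groups. Before detrending, where the median of all genes lay lower as well, the main probe read 11.7 and 12.5 in SED. In the other 6 samples it read 9.63 to 10.7. The log2 differences were then -0.14, -0.19 and -0.13 within Cy3, and -0.33, -0.37 and -0.26 within Cy5. A dimmer second probe (array column 162) read 0.438 to 0.579, with log2 differences of -0.13, -0.16 and 0.03 and standard errors of 0.127. Of 10 astrocyte marker genes 1 rose in each comparison against SED, and their medians were -0.02, -0.05 and -0.04, with a summed level of 98.5 to 124 in SED and 107 to 119 elsewhere. The part of astrocytes in the values of Fgfr3 was not tested.

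Fgfr2, a receptor of glial cells, read highest where exercise and astaxanthin were combined, but not before detrending. Its main probe (A_55_P2094881, array column 88) read 0.634 and 0.609 in SED, 0.658 and 0.648 in ME, 0.667 and 0.574 in AX and 0.726 and 0.692 in AX+ME. Both AX+ME samples lay above the other 6, and SED, ME and AX lay within 0.574 to 0.667. The log2 difference of AX+ME was 0.19 from SED, 0.12 from ME and 0.20 from AX, each with a standard error of 0.069. The adjusted p-values were 0.148, 0.709 and 0.819 in limma, and the intervals ran from 0.01 to 0.37, from -0.06 to 0.30 and from 0.01 to 0.38. Before detrending the difference from SED was -0.07, so its fitted direction flipped, while those from ME and AX were 0.08 and 0.20. Within Cy3 the difference from SED was then 0.02, and within Cy5 -0.15. The detrending factor was 0.865 and 0.796 in SED and 0.938 to 0.977 elsewhere. A second probe of 10 spots spread over array columns 34 to 164 read 0.121 to 0.144, and its spots varied by 4.82% to 8.86% (coefficient of variation) within an array. AX+ME was again the highest group there, at 0.144 and 0.135 against 0.121 to 0.137 in the other 6. It overlapped SED and lay above ME and AX. Before detrending SED was the highest group on this probe too, at 0.138 and 0.146 against 0.143 and 0.133 in AX+ME. With detrending, the log2 difference of AX+ME from SED on this probe was 0.12 with a standard error of 0.065. Its adjusted p was 0.303 in limma, each probe as a row of its own.

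Fgfr1, the receptor of neurons and progenitors, did not pass on its main probe, and its 3 probes varied in different ways. The main probe (A_55_P2057777, array column 116) read 14.7 and 14.8 in SED, 14.5 and 14.3 in ME, 14.9 and 14.0 in AX and 13.5 and 14.2 in AX+ME. The log2 difference from SED was -0.03 in ME, -0.03 in AX and -0.09 in AX+ME, with a standard error of 0.062 and an interval for AX+ME of -0.26 to 0.07. Before detrending these were -0.24, -0.23 and -0.30. A probe at array column 102 read 0.979 to 1.27, lowest in the SED sample of each dye, with log2 differences of 0.16, 0.16 and 0.24 (adjusted p 0.262, 0.251 and 0.111 in limma, each probe as a row of its own). Before detrending SED was no longer lowest within Cy5. The differences on this probe were then 0.05, 0.16 and 0.13 within Cy3, and -0.15, -0.21 and -0.04 within Cy5. A probe at array column 17 read 1.85 in SED replicate 2, where its detrending factor was 1.48, and 1.06 to 1.34 in the other 7 samples.

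**Figure D3:**
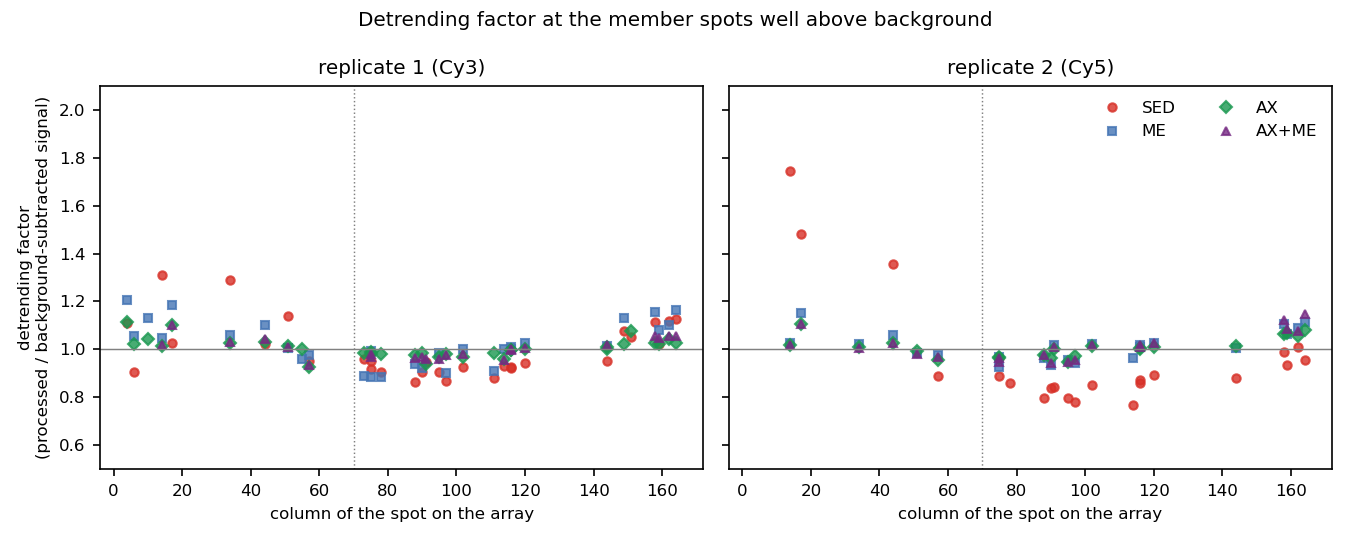
Detrending factor (processed over background-subtracted signal) at every member spot that was well above background, by column of the spot on the array, for the 4 Cy3 arrays (left) and the 4 Cy5 arrays (right); the dotted line marks column 70. In SED replicate 2 the factor was 1.75 at the Fgf1 spot in column 14 and 0.795 at the Vegfb spot in column 95, while the 3 other groups stayed within 0.883 to 1.21.

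The columns where SED replicate 2 departed from the other Cy5 arrays were mostly below 70. The limit of column 70 was itself set from an earlier look at the SED arrays, so this split describes them and tests nothing. It was at least 0.5 log2 above their mean for 12.75% of 13252 probes with a single spot below column 70 and for 2.00% of 19185 from column 70 on. It was as far below their mean for 17.85% and 1.03%. The main probe of Fgf1 lay below column 70, and the main probes of the other 6 tested members lay at column 75 or beyond. In a fit restricted to array columns from 70 on, no member passed in any comparison, and 0, 0 and 3 genes passed in ME, AX and AX+ME against SED.

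Other genes of the VEGF system were taken from a list of 13 further ligands and receptors, of which 12 were tested. In AX+ME against SED 1 of the 12 fell and none rose, and in ME and AX none passed. The 1 that fell was Flt1, VEGF receptor 1, the receptor of VEGF-A and VEGF-B on endothelium. It read 7.91 and 8.57 in SED, 5.97 and 5.45 in ME, 6.13 and 5.73 in AX and 5.94 and 5.43 in AX+ME, without overlap between SED and the rest. Its log2 difference in AX+ME was -0.53 with a standard error of 0.083 (adjusted p 0.0436 in limma), against -0.53 in ME and -0.47 in AX (adjusted p 0.0559 and 0.0608). Before detrending it was -0.44 (adjusted p 0.0395 in limma), and without SED replicate 1 and SED replicate 2 it was -0.65 and -0.42. It did not pass when any 1 of the other 6 samples was left out, but almost no gene passed in those fits. The list's median log2 difference was -0.22 in ME, -0.14 in AX and -0.11 in AX+ME. In ME the values ran from -0.53 (Flt1) to 0.22 (Nrp1, a co-receptor of VEGF-A), and in AX from -0.58 (Angpt1, the ligand of the TIE2 receptor that steadies vessels) to 0.13 (Nrp1).

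The genes of the oxygen-sensing axis that controls Vegfa did not pass. Of 14 tested, 0 passed in any comparison against SED, with medians of -0.09, -0.08 and -0.06. The lowest was Epas1, the hypoxia-inducible factor of endothelium, at -0.25, -0.25 and -0.26. It read 40.48 and 26.26 in SED and 26.88 to 28.11 in the other 6 samples, so SED replicate 1 alone was high and the direction turned within Cy5. The highest was Pdk1, a hypoxia-induced kinase that limits mitochondrial pyruvate use, at 0.39, 0.41 and 0.50. It read 0.913 and 0.524 in SED and 0.893 to 0.992 in the other 6 samples, so SED replicate 2 alone was low. The detrending factor there was 1.73, which raised that reading.

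**Figure D4:**
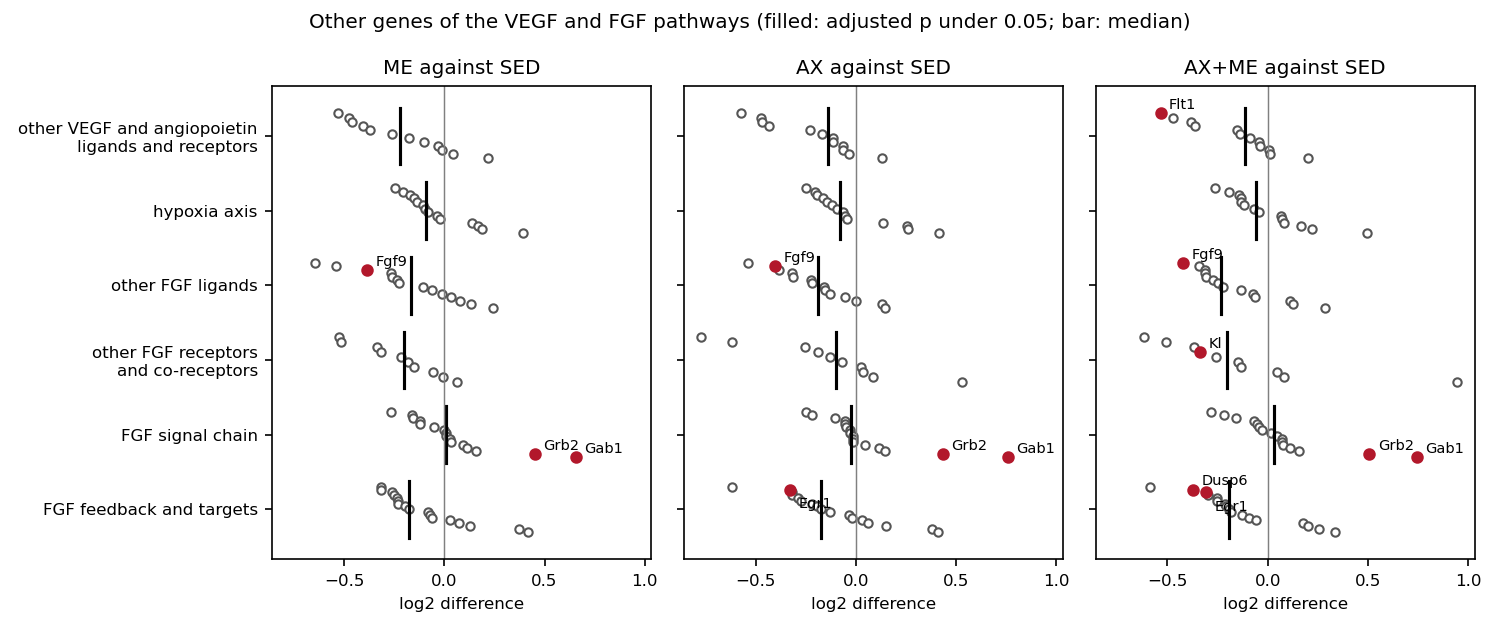
Log2 differences from SED of the other VEGF and FGF pathway genes in 6 lists, 1 point per gene; filled points passed an adjusted p of 0.05 in limma and black bars are list medians. Fgf9 fell and Gab1 and Grb2 rose in all 3 panels, Egr1 fell in AX and AX+ME, and Flt1, Kl and Dusp6 passed in AX+ME only, a difference between panels that was not tested.

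Of 22 other FGF ligand genes 14 were tested, and 1 fell in each comparison against SED while none rose. It was Fgf9, a neuronal and glial mitogen. Its probe (array column 80) read 3.76 and 4.15 in SED, 2.89 and 3.17 in ME, 2.79 and 3.20 in AX and 2.83 and 3.07 in AX+ME. All 6 samples outside SED lay below both SED samples. The log2 difference was -0.39, -0.40 and -0.42, with a standard error of 0.052 and adjusted p-values of 0.0445, 0.0403 and 0.0320 in limma. Before detrending it was -0.39, -0.50 and -0.50. Without SED replicate 2 it was -0.39, -0.41 and -0.42, and only the last passed. The list's medians were -0.17, -0.19 and -0.23.

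Of 11 listed FGF co-receptors and other receptors 10 were tested, of which 1 fell in AX+ME against SED and none passed in ME or AX. It was Kl (klotho), the co-receptor for the hormone FGF23, which also stands in the choroid plexus list. Kl read 3.53 and 3.75 in SED, 2.83 and 3.04 in ME, 3.72 and 3.75 in AX and 2.86 and 2.90 in AX+ME. Both exercised groups lay below both sedentary groups. The log2 difference was -0.31 in ME (adjusted p 0.0641 in limma), 0.04 in AX and -0.34 in AX+ME (adjusted p 0.0448), while over both diets the difference with exercise was -0.34 (adjusted p 0.0564). Without SED replicate 2 that in AX+ME was -0.32 (adjusted p 0.0694). The summed choroid plexus level given beside Vegfc was lower in ME, AX and AX+ME than in SED in each dye. By gene, that list's median log2 difference was -0.45 in ME, -0.09 in AX and -0.50 in AX+ME. All 16 of its genes read lower in ME and in AX+ME, while in AX 11 read lower and 5 higher. The part of the choroid plexus in the values of Kl was not tested. Klb, the co-receptor for FGF21, and Fgfr4 were well above background on only 5 of the 8 arrays, and no differences are given for them.

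Of 16 genes of the signal chain below the FGF receptors, 2 rose in each comparison against SED and none fell. Gab1, a docking protein for PI3-kinase and SHP2, read 0.282 and 0.302 in SED and 0.444 to 0.513 in the other 6 samples. Its log2 difference was 0.66, 0.76 and 0.75 with a standard error of 0.080 (adjusted p 0.0373, 0.0275 and 0.0255 in limma). Its spot lay at array column 4, where the detrending factor was 1.44 and 1.87 in SED and 1.04 to 1.12 elsewhere, and before detrending the differences were larger, at 1.21, 1.38 and 1.36. Without SED replicate 2 the difference in ME was 0.71 and did not pass (adjusted p 0.0542 in limma). Grb2, the adaptor that brings SOS to the receptor complex, read 10.7 and 11.9 in SED and 15.2 to 16.3 in the other 6. Its log2 difference was 0.45, 0.43 and 0.51 with a standard error of 0.064 (adjusted p 0.0476, 0.0495 and 0.0326 in limma). That spot lay at array column 40, and with probes from column 70 on, which use another Grb2 probe, the differences were 0.06, 0.05 and 0.16 and did not pass. Frs2, the docking protein nearest the receptor, was the lowest of the list at -0.27, -0.25 and -0.28 and did not pass. The list's medians were 0.01, -0.02 and 0.03.

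Of 17 feedback regulators and targets of FGF signalling, 0 passed in ME, 1 fell in AX and 2 fell in AX+ME against SED, with none rising. Egr1, an immediate early transcription factor induced by ERK signalling and by neuronal activity, read 13.6 and 14.6 in SED, 11.7 and 12.4 in ME, 10.8 and 11.7 in AX and 11.0 and 11.9 in AX+ME. All samples outside SED lay below both SED samples. Its log2 difference was -0.23, -0.33 and -0.31 with a standard error of 0.048 (adjusted p 0.0831, 0.0489 and 0.0439 in limma), and without SED replicate 2 it was -0.33 in AX and -0.30 in AX+ME, neither past the threshold. Dusp6, a phosphatase that dephosphorylates ERK, read 9.45 and 9.15 in SED, 8.41 and 7.86 in ME, 7.60 and 7.61 in AX and 7.25 and 7.12 in AX+ME. Its log2 difference in AX+ME was -0.37 with a standard error of 0.054 (adjusted p 0.0402 in limma). The spot of Dusp6 lay at array column 41, with a detrending factor of 1.17 and 1.61 in SED and 1.01 to 1.07 elsewhere, and before detrending the difference in AX+ME was 0.02. The list's medians were -0.18, -0.17 and -0.19. In ME the values ran from -0.32 (Etv5, a transcription factor target of FGF signalling) to 0.42 (Spred1, an inhibitor of Ras signalling). Spred1 read 1.299 and 0.830 in SED and 1.249 to 1.465 in the other 6 samples, so SED replicate 2 alone was low. The detrending factor there was 1.34, which raised that reading. The 14 calls in these lists, for 7 genes, were all lost when any 1 of the 6 samples outside SED was left out, and 7 of the 14 were lost without SED replicate 2. Almost no gene of any kind passed with 1 of those 6 samples left out, so that loss is not particular to these genes. With no filter on dim probes 0 of the 14 passed, without the replicate block 5 of the 14, and from array column 70 on 0 of the 9 that could be tested. None of the genes of the 6 lists passed in AX+ME against ME or in AX+ME against AX.

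The genes whose pattern was most like a member's were sought among 15021 genes by Pearson's r over the 8 samples, after each dye was centred. The points share the SED samples, so r describes these arrays only. Nearest to Vegfc were Cntnap5b (0.994), Snai2 (0.993) and Zmiz1 (0.990), and 907 genes had an r above 0.9 with it. Nearest to Fgfr3 were Trap1 (0.995), C1qtnf4 (0.994) and Lix1l (0.991), with 986 genes above 0.9. Nearest to Fgf1 were Tyms (0.998), Nbl1 (0.997) and Rnf11 (0.997), with 996 genes above 0.9, and all 3 had their spots at array columns 19 to 39. The 3 members that were highest in SED thus each had at least 907 close matches. Nearest to Vegfa were Elfn2 (0.988), Rps6ka2 (0.971) and Atoh8 (0.967), with 30 genes above 0.9. Nearest to Vegfb were Gpaa1 (0.993), Rpp25 (0.986) and Stoml1 (0.986), with 200. Nearest to Fgfr2 were Trabd (0.984), Slc18a3 (0.979) and Atp2b4 (0.977), with 64. Nearest to Fgfr1 were Scaper (0.975), Igf2 (0.954) and Tmem38b (0.949), with only 9 genes above 0.9, and Fgfr1 had the smallest such number of the 7.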

How the data were processed

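Expression was measured on Agilent SurePrint G3 8x60K mouse arrays, 8 samples on 1 slide. Per the file headers, the deposited files hold Feature Extraction intensity values per spot, background-subtracted, detrended and dye-normalized, and per the submitters' processing notes the software was version 11.0.1.1. The authors' deposited value table holds the same intensity values to within rounding. The channel that held each sample's RNA was taken from the labels, control and flagged spots were left out, and each signal was scaled by the 75th percentile of its array and put on the log2 scale. Probes were kept if both arrays of some group had them well above background (37445 of 55681), the brightest standing for a gene. limma 3.58.1 in R 4.3.3 fitted group and dye over all 8 samples, with 3 residual degrees of freedom, intervals of 95% and a threshold of 0.05 on the Benjamini-Hochberg adjusted p. Dye and replicate number are the same, so the dye term is the replicate block. The script was tested on simulated data.

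Symbols came from RefSeq accessions (26582 of 55681 probes). The arrays' number limits the precision. The members and lists were chosen with earlier results of these data known. The named genes are the members, pathway genes past the threshold, list extremes and the 3 nearest genes of each member. Alternatives were background correction, normalization, probe filter and choice, array columns, prior, block, leaving out each sample, and the signal before detrending, the last chosen after the data were seen. The files hold no mean signal, so normexp was run on the median signal. Probe sequences were not used here.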

Additional observations from a re-analysis of the deposited data

How the results depend on the processing

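Of 1126 member differences over all alternatives, 70 had the other sign and 12 passed, and no difference past the threshold was among those that changed sign. The number of members past the threshold was 1 in AX against SED and 1 in AX+ME against SED under normexp, 2 in AX+ME against SED with the intensity trend and robust prior, and 1 in AX+ME against SED before detrending. Leaving out each sample in turn gave 0 to 1 in ME, 0 to 2 in AX and 0 to 1 in AX+ME against SED, 0 to 1 for the interaction, exercise and astaxanthin, and 0 in the other 2 comparisons. All the nonzero ones came without SED replicate 1. Without the replicate block 0 members passed, while 659, 651 and 962 genes passed in ME, AX and AX+ME against SED in place of 779, 901 and 1753. The other counts over all genes, in the same order, were 1950, 4190 and 5804 under normexp, 229, 271 and 385 with no filter, 1351, 1569 and 2637 for probes well above background on all arrays, 0, 0 and 3 from column 70 on, 1901, 2259 and 3457 with the trend and robust prior, and 1374, 2328 and 4180 before detrending. Without SED replicate 1 they were 4980, 5044 and 5368, without SED replicate 2 they were 1328, 1437 and 1968, and without any 1 of the other samples between 0 and 5. For the interaction, exercise and astaxanthin the counts were 137, 183 and 214 as reported, 498, 622 and 1122 under normexp, 0, 2 and 2 with no filter, 230, 303 and 397 for probes well above background on all arrays, 326, 429 and 652 with the trend and robust prior, 400, 488 and 519 before detrending, and 0 in each from column 70 on. With the mean of a gene's probes they were 50, 142 and 144. Without SED replicate 1 they were 2935, 3077 and 3470, without SED replicate 2 they were 615, 809 and 1027, and without any 1 of the other samples 0. Dusp6 in AX+ME against SED changed sign to 0.0024 (adjusted p 0.991 in limma) under normexp and to 0.019 (adjusted p 0.933) before detrending, and the cause was not tested. Of the pathway genes past the threshold, 124 of 261 values passed over all alternatives. Signal over background limits Fgf2 and the second Fgf1 probe, which lie near it.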
